A study of Mus musculus with 9 samples.

Results

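The 7 genes of lung mesenchyme and lipofibroblasts followed here were Tcf21, Meox2, Limch1, Macf1, Npnt, Plin2 and Lpl. They were taken from the deposited table by gene name alone, as 7 of its 27207 genes, and all 7 passed the filter on low counts that left 19374 genes for testing. RNA of whole mouse lungs was sequenced at E18.5, late in gestation. The 9 libraries formed 3 groups of 3. Wild-type (WT) lungs carried the genotype given as wild type. The other lungs were Dnmt1 conditional knockouts (CKO), which carried Tbx4-rtTA and Tet-O-Cre together with the Dnmt1-D/D alleles, and were divided by phenotype: lungs called weak were small (hypoplastic) without haemorrhage, and lungs called strong were small with haemorrhages across the parenchyma. Weak and strong CKO lungs thus share 1 genotype and differ by what was seen in the lung.

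Dnmt1 is the methyltransferase that copies CpG methylation onto new DNA strands. The Tbx4-rtTA driver turns on Cre in the lung mesenchyme when doxycycline is given, so that the lung epithelium is not its direct target; the treatment and its timing are not given in the sources used here. Transcripts of all lung cells are mixed in each value, and which cells made each transcript was not measured. The labels do not say whether the lungs of a group came from separate litters, so each p-value rests on the spread among these lungs alone. How much of that spread is technical is not known.

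The lung mesenchyme lies between the airway epithelium and the vessels and supplies growth factors, matrix and lipid. Lipofibroblasts are mesenchymal cells of the alveolar wall that store neutral lipid in droplets, take up fatty acids released by lipoprotein lipase, and pass lipid on to alveolar type 2 cells for surfactant. Tcf21, a bHLH transcription factor needed for lung mesenchyme development, marks lipofibroblasts and their precursors. Meox2 is a homeobox factor of mesenchyme and vessels. Limch1 activates non-muscle myosin II, and Macf1 is a spectraplakin that links microtubules to actin. Npnt encodes nephronectin, a matrix ligand of integrin alpha 8 beta 1. Plin2 coats lipid droplets, and Lpl encodes lipoprotein lipase, which frees fatty acids from triglyceride-rich lipoproteins.

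Tcf21, Limch1 and Macf1 are the genes that fell in both CKO groups, and their upstream DNA is shown because the deleted enzyme acts on CG dinucleotides, here in capitals. DNA methylation was not measured in these libraries. The stretches end at the base before the annotated gene and are from RefSeq on GRCm38.p6. The Tcf21 stretch is chr10:22820175-22820393 on the minus strand, the Limch1 stretch chr5:66745639-66745826 on the plus strand, and the Macf1 stretch chr4:123684361-123684610 on the minus strand.
Tcf21: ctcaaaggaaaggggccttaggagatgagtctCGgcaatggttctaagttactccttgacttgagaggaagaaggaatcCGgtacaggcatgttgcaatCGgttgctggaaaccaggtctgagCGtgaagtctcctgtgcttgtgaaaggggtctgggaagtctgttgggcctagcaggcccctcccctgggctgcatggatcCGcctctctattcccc
Limch1: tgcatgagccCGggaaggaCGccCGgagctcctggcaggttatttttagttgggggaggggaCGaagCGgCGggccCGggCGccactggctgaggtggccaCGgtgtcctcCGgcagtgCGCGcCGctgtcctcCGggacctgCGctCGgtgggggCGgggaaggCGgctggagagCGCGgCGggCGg
Macf1: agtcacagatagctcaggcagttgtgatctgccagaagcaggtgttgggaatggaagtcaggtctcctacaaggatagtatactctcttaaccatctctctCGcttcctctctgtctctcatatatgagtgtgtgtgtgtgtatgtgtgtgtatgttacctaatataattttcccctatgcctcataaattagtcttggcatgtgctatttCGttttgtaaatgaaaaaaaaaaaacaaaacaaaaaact
Within the 250 bases before the first listed RefSeq start, Limch1 held 30 CG dinucleotides, Tcf21 5 and Macf1 2. This window runs 62 bases into the annotated gene for Limch1 and 31 for Tcf21, so their printed stretches are shorter. The Limch1 stretch printed above holds 22 of the 30. The median over 32841 RefSeq promoters was 6, with quartiles of 2 and 16, and 5.9% of promoters held at least as many as Limch1, 55.6% at least as many as Tcf21 and 81.2% at least as many as Macf1. RefSeq lists further starts inside Limch1, whose windows held 2 and 7, shares of 81.2% and 46.3%, so the dense value belongs to the first start alone.

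Of the other members, Npnt held 21 CG dinucleotides in the same window of its first listed promoter, Meox2 12 and Plin2 6. Motifs were searched on both strands. The E-box CANNTG, the core bound by bHLH dimers and present in 66.23% of promoters, occurred 3 times in Macf1, once in Meox2 and once in Plin2, and was not found in this window of Tcf21 or in the first listed promoters of Limch1 and Npnt. The nuclear receptor hexamer AGGTCA, present in 14.03% of promoters, occurred once in Plin2 and once in Npnt. The GC box GGGCGG, present in 32.75%, occurred 3 times each in Limch1 and Npnt and once in Meox2, and TATAAA, present in 12.37%, once in Meox2. RefSeq windows were matched for 6 of the 7 members, with Lpl the other.

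All 7 members were well covered, with 1577 to 119607 counts per library, out of library totals of 25607595 to 33156732. None shared an exon base with another annotated gene. Levels between genes were set side by side as library-scaled counts (CPM) divided by the kilobases of merged exon. In WT lungs Npnt stood highest, at 205 ± 9.77 CPM per kb (SD, n = 3), then Tcf21 at 165 ± 19.3. Macf1 followed at 106 ± 14.5 and Limch1 at 102 ± 11.5, a pair that did not differ beyond its spread.

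Meox2 at 39.9 ± 4.21 and Plin2 at 38.2 ± 4.41 CPM per kb in WT lungs were another such pair. Lpl was lowest at 11.4 ± 3.85. The order of the 7 means was the same in the weak and the strong CKO lungs. The deposited RPKM gives another order (Macf1 16.5, below Plin2 at 17.7, in WT), because its gene length adds up the exons of all transcripts: 184371 bases for Macf1 against 31402 bases of merged exon.

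In the weak CKO lungs 3 of the 7 members fell and none rose: Limch1, Macf1 and Tcf21, by 44.9%, 38.3% and 32.2%. In this comparison 5.38% of all genes tested were called lower and 9.09% higher. In the strong CKO lungs 5 members fell and none rose, the same 3 plus Npnt and Plin2, where 11% of all genes tested were called lower and 14.6% higher. Meox2 narrowly missed the threshold in strong lungs, and Lpl did not approach it in either group. In bulk lung RNA, fewer cells of a type and less RNA per cell cannot be told apart.

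**Figure D1:**
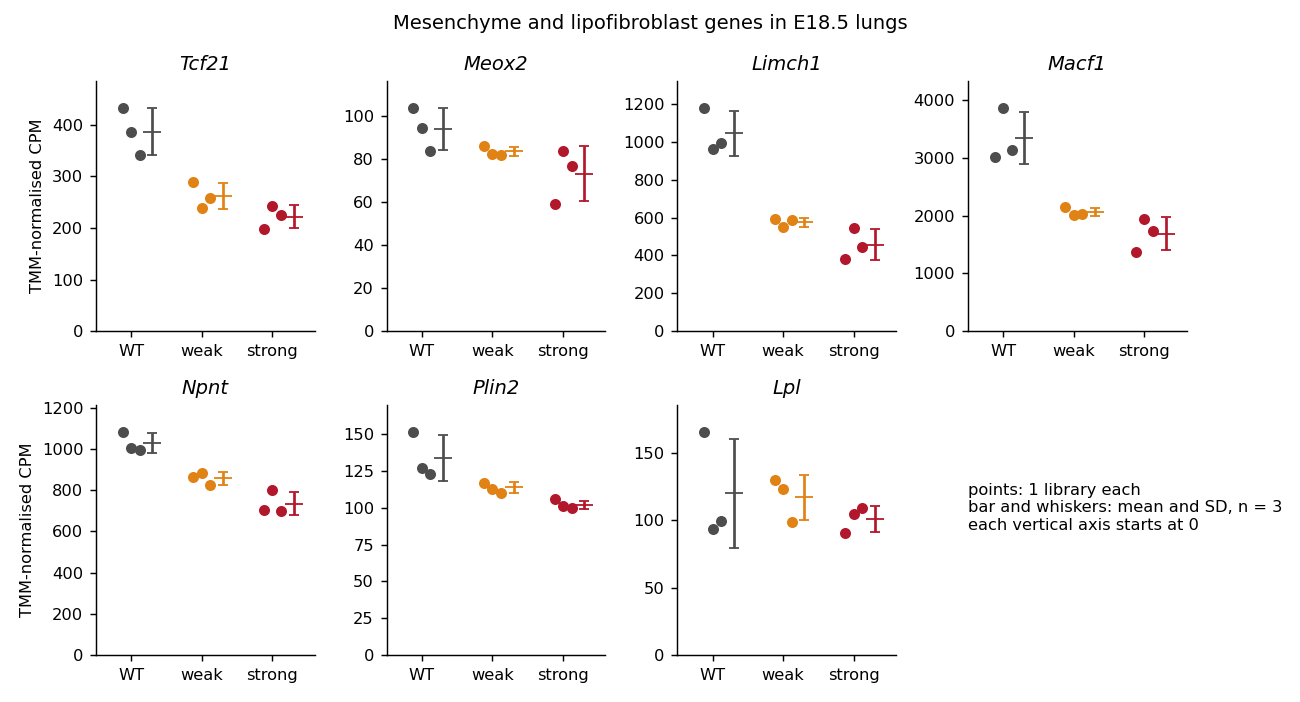
CPM (vertical axes, scaled with TMM factors, each from 0) of the 7 genes in the WT, weak CKO and strong CKO lungs; points are single libraries and whiskers the mean and SD of 3. Limch1, Macf1, Tcf21, Npnt and Plin2 lie lower in every CKO library than in every WT library, and Lpl groups overlap.

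Positions below are on GRCm38. Tcf21 (ENSMUSG00000045680, chr10:22817281-22820174, minus strand) stood at 433, 386 and 342 CPM in the WT libraries WT_265_1, WT_268_1 and WT_549_2. It stood at 290 CPM in MUT_W_265_2, 239 in MUT_W_268_3 and 258 in MUT_W_549_3, the weak CKO libraries. The strong CKO libraries gave 199 CPM (MUT_S_265_5), 243 (MUT_S_268_4) and 225 (MUT_S_860_3). Both CKO groups lay wholly below WT, and they overlapped each other. The log2 change was -0.56 ± 0.11 (SE) in weak lungs, with an adjusted p of 0.00759 from edgeR's quasi-likelihood test with Benjamini-Hochberg adjustment. In strong lungs Tcf21 fell by 0.80 on the log2 scale, or 42.5%, with an adjusted p of 0.000639.

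Meox2 (ENSMUSG00000036144, chr12:37108540-37179534, plus strand), the other transcription factor, stood at 104, 94.5 and 84 CPM in WT, at 86.1, 82.6 and 82.2 in weak and at 59.4, 83.8 and 77 in strong CKO libraries, in the library order given for Tcf21. Weak lungs overlapped WT. Strong lungs did not, but only narrowly, with 83.8 against 84 CPM at the nearest. MUT_S_265_5 was far below the other strong libraries. The log2 difference was -0.17 ± 0.12 (adjusted p 0.392) in weak lungs and -0.36 ± 0.12 (adjusted p 0.0501) in strong lungs, and Meox2 was not called in either. Without MUT_S_265_5 the strong difference was -0.22, and without MUT_S_268_4 it was -0.46, which then passed the threshold (adjusted p 0.0227). It also passed without WT_549_2 (log2 -0.43, adjusted p 0.0385), and DESeq2 called it at an adjusted p of 0.023.

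Limch1 (ENSMUSG00000037736, chr5:66745827-67057158, plus strand), the myosin activator, showed the largest fall of the 7 in both groups. Its levels were 1179, 963 and 991 CPM in WT libraries, 592, 548 and 586 in weak and 379, 543 and 445 in strong CKO libraries. All 3 groups were separate, since the highest strong library lay below the lowest weak one. The log2 change was -0.86 ± 0.13 in weak lungs (adjusted p 0.00189) and -1.20 ± 0.13 in strong lungs (adjusted p 0.000169), a fall of 56.4% in the latter. In the strong comparison 2.07% of all genes tested had a lower log2 value.

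Macf1 (ENSMUSG00000028649, chr4:123349633-123684360, minus strand), the cytoskeletal linker, had 3019, 3863 and 3142 CPM in WT libraries, 2140, 2016 and 2027 in weak and 1377, 1943 and 1738 in strong CKO libraries. Again no 2 groups overlapped, and MUT_S_265_5 was the lowest of the 9. The log2 change was -0.70 ± 0.14 in weak lungs (adjusted p 0.00891) and -0.99 ± 0.14 in strong lungs (adjusted p 0.000808), 49.5% below WT in strong lungs. Macf1 has the longest exon sequence of the 7, and Limch1 (10263 bases of merged exon) and Lpl (10478) are also over 10 kb. Genes with at least 10 kb of merged exon, 1478 of those tested, were called lower in 11.1% of cases in weak and 23.3% in strong lungs, beside 5.38% and 11% of all genes. In strong lungs 3.45% of these long genes had a larger fall than Macf1. The share of long genes in all counts was 17.8% to 19.6% in WT, 17.3% to 18% in weak and 16.6% to 17.6% in strong libraries. The part of gene length in the falls of Macf1 and Limch1 was not tested.

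Npnt (ENSMUSG00000040998, chr3:132881745-132950291, minus strand), the integrin ligand, stood at 1085, 1004 and 997 CPM in WT libraries, 866, 882 and 824 in weak and 706, 800 and 699 in strong CKO libraries. The groups did not overlap, and the steps between them were of like size. In weak lungs the log2 difference of -0.26 ± 0.08 missed the threshold (adjusted p 0.0548). In strong lungs Npnt fell by 0.49 on the log2 scale, 28.6%, with an adjusted p of 0.00206. DESeq2 called the weak difference as well, at an adjusted p of 0.00415.

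Plin2 (ENSMUSG00000028494, chr4:86648386-86670060, minus strand), the droplet coat protein, had 152, 127 and 123 CPM in WT libraries, 117, 113 and 110 in weak and 106, 101 and 100 in strong CKO libraries. Each group lay below the one before it, with small spreads in both CKO groups (SD 3.52 in weak and 2.83 in strong). The log2 difference was -0.24 ± 0.08 in weak lungs (adjusted p 0.0697). In strong lungs Plin2 fell by 0.39 on the log2 scale, 23.7%, with an adjusted p of 0.00543. DESeq2 called the weak difference, at an adjusted p of 0.0387, as did the fit without WT_549_2, at 0.0478.

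Lpl (ENSMUSG00000015568, chr8:68880491-68907448, plus strand), the lipase, had 166, 93.3 and 99.4 CPM in WT libraries, 130, 123 and 98.8 in weak and 90.6, 105 and 109 in strong CKO libraries. WT_265_1 stood far above the other WT libraries, and the 3 groups overlapped. The log2 difference was -0.03 ± 0.21 in weak lungs (adjusted p 0.951; 95% interval -0.51 to 0.46) and -0.24 ± 0.21 in strong lungs (adjusted p 0.451; 95% interval -0.72 to 0.25). Those intervals include changes as large as that of Npnt. Without WT_265_1 the differences were 0.29 and 0.07. A direction for Lpl could therefore not be given.

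**Figure D2:**
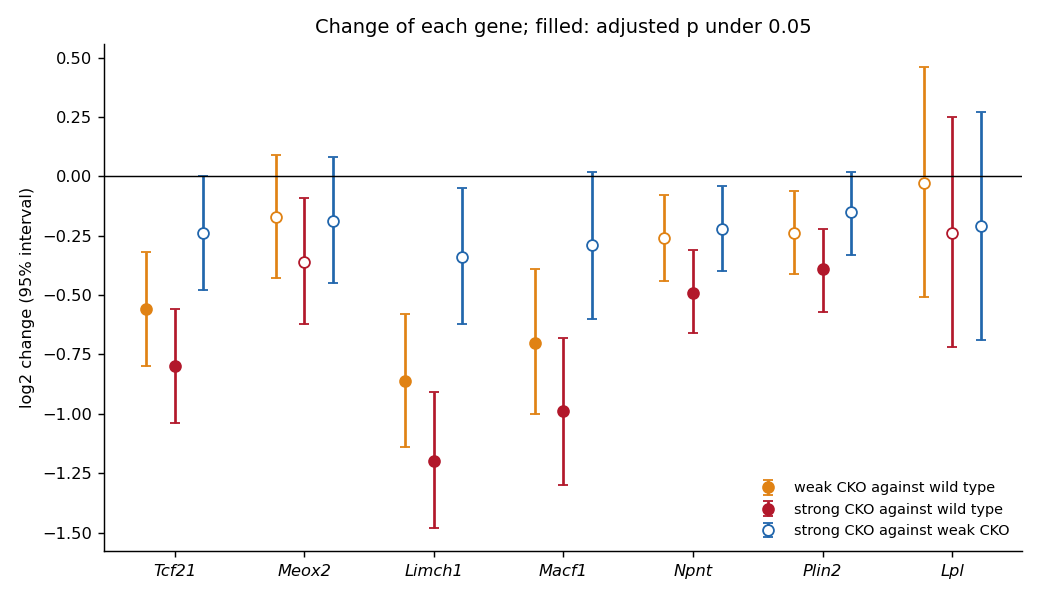
Log2 change of each gene (vertical axis) with its unadjusted 95% interval in 3 comparisons. Filled points passed an adjusted p of 0.05. Tcf21, Limch1 and Macf1 passed in both comparisons with WT, Npnt and Plin2 in strong CKO lungs, and no gene passed between strong and weak lungs.

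Set beside all genes, the members leaned downward. They were chosen with earlier results of these data known, so the shares below describe them and test nothing. Their median log2 difference was -0.26 in weak and -0.49 in strong lungs, where the median over all genes tested was -0.01 and 0. Every weak library lay below every WT library for 5 of 7 members, against 13.8% of all genes tested, and every strong library did for 6 of 7, against 19%. The falls of Tcf21, Limch1 and Macf1 in both groups, and of Npnt and Plin2 in strong lungs, passed the threshold under each of the 18 alternative settings run. Both CKO groups were compared with the same WT libraries, so a high WT library lowers both values: WT_265_1 was the highest of the 9 for 6 of the 7 members, and MUT_S_265_5 the lowest for 5.

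Between strong and weak lungs, which differ by haemorrhage and not by genotype, no member was called. All 7 were lower in strong lungs on average, by log2 differences of -0.15 (Plin2) to -0.34 (Limch1), and every adjusted p was between 0.873 and 0.926. Before adjustment, Limch1 and Npnt passed 0.05 in the quasi-likelihood fit, among 1099 of the 19374 genes tested (5.67%). DESeq2 gave 4 members at that unadjusted level, among 1014 genes (5.25%), and 0 after adjustment. An unadjusted threshold of 0.05 passes about such a share when no gene differs. Over all genes edgeR called 1, or 0.00516%, and DESeq2 called 10.

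The 95% intervals of the difference between strong and weak lungs are each for 1 gene, without adjustment for the number of genes tested. Those of Limch1 and Npnt left out 0, although neither gene was called (adjusted p 0.873 for each in the quasi-likelihood test). That of Limch1 ran from -0.62 to -0.05, that of Macf1 from -0.60 to 0.02 and that of Tcf21 from -0.48 to 0.00. For Npnt it was -0.40 to -0.04, for Plin2 -0.33 to 0.02, for Meox2 -0.45 to 0.08 and for Lpl -0.69 to 0.27. The strong libraries lay wholly below the weak ones for 4 members (Limch1, Macf1, Npnt and Plin2), against 6.73% of all genes tested. The means fell in the order WT, weak, strong for all 7 members, an order found in 29.3% of tested genes. These shares too are description, since the members were chosen with earlier results known.

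The members were also compared with one another, with Tcf21 as the common base, so that its own error enters every ratio. When each was divided by Tcf21 in the same library, and the log2 ratio set to 0 at its WT mean, Limch1 stood at 0.01, -0.11 and 0.10 in WT libraries, at -0.40, -0.23 and -0.25 in weak and at -0.51, -0.27 and -0.45 in strong libraries. It was thus lower against Tcf21 in every CKO library. Macf1 kept close to Tcf21, at -0.31, 0.22 and 0.09 in WT libraries, with all 6 CKO libraries between -0.32 and -0.03. Meox2, Npnt and Plin2 were higher against Tcf21 in every CKO library than in every WT library, for Plin2 0.22 to 0.61 against -0.07 to 0.05. The differences between the members' changes were not tested.

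**Figure D3:**
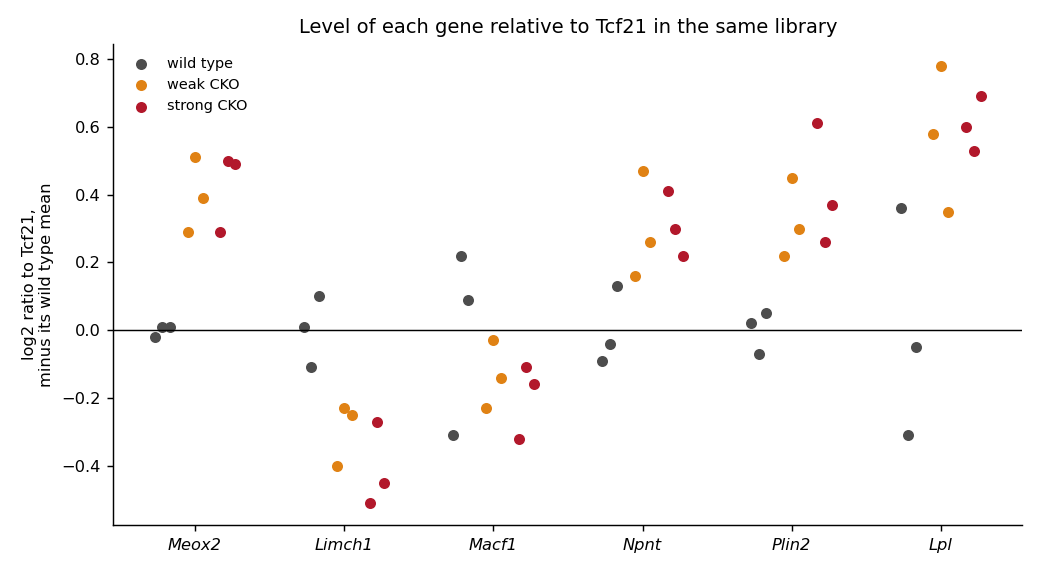
Log2 ratio of each of the other 6 genes to Tcf21 in the same library, less its WT mean (vertical axis); points are single libraries coloured by group. Limch1 lies below its WT points in the CKO libraries, Macf1 overlaps them, and Meox2, Npnt and Plin2 lie above.

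Likeness over the 9 libraries was measured as the root mean square difference of log2 CPM after each gene was centred on its own mean. Among the members, Npnt and Plin2 were the closest pair (0.09) and Limch1 and Lpl the farthest apart (0.49). Of 14091 genes with a mean log2 CPM of at least 1, those nearest to Tcf21 were H6pd (0.071), Cmklr1 (0.084) and Plcb4 (0.085). Nearest to Limch1 were Clec3b (0.081), Eepd1 (0.096) and Gnao1 (0.096), and nearest to Macf1 were Plxdc2 (0.078), Prex2 (0.079) and Stard9 (0.11).

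Around Npnt stood Rsu1 (0.05), Mef2a (0.053) and Aaed1 (0.055). Plin2 was most like Tgfbr2 (0.035), a TGF-beta receptor, then Mocs1 (0.04) and Arhgap31 (0.044). Meox2 was most like 4931406P16Rik (0.064), Adcy9 (0.065) and Rapgef2 (0.065), and Lpl like Selenop (0.079), Kcne2 (0.079) and Pof1b (0.09). A member's own spread about its mean sets the scale of these values: 0.18 for Plin2, 0.21 for Npnt and Meox2, 0.26 for Lpl, 0.36 for Tcf21, 0.44 for Macf1 and 0.53 for Limch1.

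Genes that act with the members were read from the same fit, as lists of known partners and relatives. The lists were chosen with earlier results of these data known. Over all genes tested, 14.5% were called in weak and 25.6% in strong lungs, in either direction. Among other genes of the lung mesenchyme, 9 of 18 fell and 1 rose in weak lungs, and 13 fell and 2 rose in strong lungs, with list medians of -0.51 and -0.67. In strong lungs Wnt2, a mesenchymal signal for lung growth, fell from 72.8 ± 2.74 to 25.7 ± 4.17 CPM, and the matrix gene Mfap4 by 1.13 on the log2 scale. Fn1, fibronectin, went from 5637 ± 1287 to 1897 ± 82.0 CPM (log2 -1.57). Twist1, a mesenchymal bHLH factor, rose from 0.207 ± 0.103 to 1.81 ± 0.716 CPM, both low levels, and Gli1, a hedgehog target, by 0.37 on the log2 scale.

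Of 10 nephronectin partners, 3 fell in weak lungs, and 6 fell and 1 rose in strong lungs (medians -0.17 and -0.31). Itga8, the alpha chain of the integrin that binds nephronectin and a gene also on the mesenchyme list, went from 259 ± 41.4 CPM in WT to 154 ± 4.91 in weak and 128 ± 9.69 in strong lungs (log2 -0.74 and -1.02, adjusted p 0.00129 and 0.000132). The ligand and its receptor chain thus both fell in strong lungs. Frem1, of the Fraser basement membrane complex, fell by 1.34 on the log2 scale and Egfl6, another ligand of the same integrin, by 0.87, whereas Grip1, which helps place that complex, rose by 0.64.

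Relatives of the transcription factors moved in both directions. Of 13 bHLH relatives and dimer partners of Tcf21, 1 rose and none fell in weak lungs, and 4 rose and 1 fell in strong lungs (medians 0.04 and 0.10). DESeq2 called 3 in weak lungs. Id2, an inhibitor of bHLH dimers, fell from 151 ± 19.6 to 99.2 ± 13.4 CPM in strong lungs, and its relative Id4 rose from 15.3 ± 3.68 to 23.3 ± 0.960. Twist1, given above, is also on this list. Tcf3, a dimer partner, rose from 83.3 ± 4.84 to 103 ± 2.92 CPM in strong lungs (log2 0.30). Tcf12, another dimer partner, named after its values were seen, stood at 200 ± 11.9 CPM in WT and 204 ± 7.57 in strong lungs. Of 10 homeobox relatives and partners of Meox2, 3 fell and 1 rose in weak and 4 fell and 1 rose in strong lungs (medians -0.17 and -0.21). Hoxa5, a homeobox gene of lung mesenchyme, fell by 0.72, Zeb2 by 0.64 and Meis1 by 0.57, while Cdkn1a, a cell cycle inhibitor, rose from 35.1 ± 4.95 to 58.5 ± 14.0 CPM.

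On the list of Limch1's relative Lmo7 and non-muscle myosin II, 1 of 9 fell in weak and 3 fell in strong lungs (medians -0.04 and -0.19). Lmo7 fell from 1066 ± 150 to 738 ± 39.8 CPM (log2 -0.53). The kinase Rock2 fell by 0.31 on the log2 scale and the myosin heavy chain Myh10 by 0.27. Among 13 plakins and microtubule-end partners of Macf1, 2 fell in weak and 3 in strong lungs (medians 0.01 and -0.06). Counted in either direction, the calls on this list and on the Limch1 list were near the shares over all genes tested, 14.5% in weak and 25.6% in strong lungs. Dst, the other spectraplakin, fell from 251 ± 10.3 to 185 ± 16.7 CPM (log2 -0.45), a smaller value than the -0.99 of Macf1; the difference was not tested. Plec and Ppl, other plakins, fell by 0.23 and 0.26.

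In the pathway of parathyroid hormone-related protein (PTHrP) and PPAR gamma, which drives lipofibroblast differentiation, 0 of 12 genes were called in weak lungs by edgeR (1 before adjustment, and 1, Fabp4, called by DESeq2), and 2 fell and 1 rose in strong lungs (medians -0.08 and -0.11). Counted in either direction, the strong calls were near the 25.6% called over all genes tested. The leptin receptor Lepr fell from 62.7 ± 6.88 to 39.8 ± 5.68 CPM (log2 -0.66). Fabp4, a fatty acid carrier, rose from 9.73 ± 1.82 to 32.2 ± 16.6 CPM (log2 1.73, adjusted p 0.0209). That call was lost without WT_268_1 (log2 1.70, adjusted p 0.0679), without WT_549_2 (log2 1.61, adjusted p 0.0775) and with the erythroid covariate (log2 1.58, adjusted p 0.0846). Fabp5, another carrier, fell by 0.57 on the log2 scale. Pparg and the receptor Pth1r, both named after their values were seen, were not called: Pparg stood at 12.2, 6.78 and 6.32 CPM in WT and 9.11, 8.56 and 7.99 in strong libraries, and Pth1r at 25.8 ± 5.52 and 22.5 ± 2.14.

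Among 17 tested genes of the lipid droplet and triglyceride turnover, 2 fell and 2 rose in weak lungs, and 4 fell and 2 rose in strong lungs (medians -0.07 and -0.15). Hilpda and G0s2, both inhibitors of the lipase ATGL, fell by 1.13 and 0.54 on the log2 scale in strong lungs. G0s2 was at 77.6 ± 7.63 CPM in WT, 77.1 ± 6.65 in weak and 53.4 ± 1.74 in strong lungs. The monoglyceride lipase Mgll fell by 0.48 and the coat protein Plin3 by 0.28. The other calls were upward: Cidea, which promotes droplet fusion, rose by 1.32 on the log2 scale at a low level, and the coat protein Plin5 rose from 1.58 ± 0.291 to 2.45 ± 0.267 CPM. DESeq2 called 3 genes of this list in weak and 5 in strong lungs, with neither Cidea nor Plin5 among them. Of 16 partners of lipoprotein lipase and genes of fatty acid uptake, 2 fell in weak and 5 fell in strong lungs, and none rose in the edgeR fit (medians -0.11 and -0.16). Counted in either direction, these calls were near the 14.5% and 25.6% of all genes tested. DESeq2 called 4 in weak and 8 in strong lungs, among them Angptl4, an inhibitor of the lipase, which was higher (edgeR log2 0.67, adjusted p 0.0547) and is named after its values were seen. Although Lpl itself was not called, Gpihbp1, which anchors the lipase on capillaries, fell from 47.2 ± 5.37 to 31.3 ± 0.0852 CPM. The lipoprotein receptor Vldlr fell from 334 ± 36.1 to 150 ± 18.2 CPM (log2 -1.16), the endothelial lipase gene Lipg from 21.2 ± 6.53 to 4.74 ± 1.11 (log2 -2.16), and the protease Pcsk6 by 0.75 on the log2 scale. In strong against weak lungs none of these partner lists held a called gene, in edgeR's test over all genes tested. Before adjustment, 6 of the 18 other mesenchyme genes and 5 of the 16 lipase partners were under 0.05, shares above the 5.67% of all genes tested. Each other partner list held 0 to 3. These counts are description, since the lists were chosen with earlier results known. DESeq2 called 1 after adjustment, the lipase inhibitor G0s2.

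Of the 35 partner genes named, 20 were called in strong lungs under every alternative run, and 12 lost the call when 1 library was left out, at adjusted p-values of 0.0501 to 0.146. The least stable were Plin5, called under 5 of 18 alternatives and lost without any single library other than WT_265_1 (log2 0.48 to 0.69), and Gli1, called under 8 and lost without any other than WT_268_1 (0.24 to 0.41). Plec was lost without WT_268_1, MUT_W_268_3 or any strong library (-0.25 to -0.18), and Ppl without WT_268_1 or any strong library (-0.28 to -0.20). Plin3 was lost without WT_265_1, WT_549_2 or any strong library (-0.28 to -0.23), and Mgll without WT_265_1, WT_549_2, MUT_S_265_5 or MUT_S_860_3 (-0.46 to -0.39). Cidea was lost without WT_268_1, WT_549_2, MUT_W_268_3, MUT_S_265_5 or MUT_S_268_4 (adjusted p 0.051 to 0.119), and Fabp5 without WT_549_2 or any strong library (-0.58 to -0.53). Myh10 was lost without WT_268_1, MUT_S_265_5 or MUT_S_860_3 (-0.26 to -0.21), Id4 without WT_268_1 or WT_549_2 (0.51 in each case), and Rock2 without MUT_S_265_5 (-0.26). The directions of these genes did not turn in any of these fits.

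**Figure D4:**
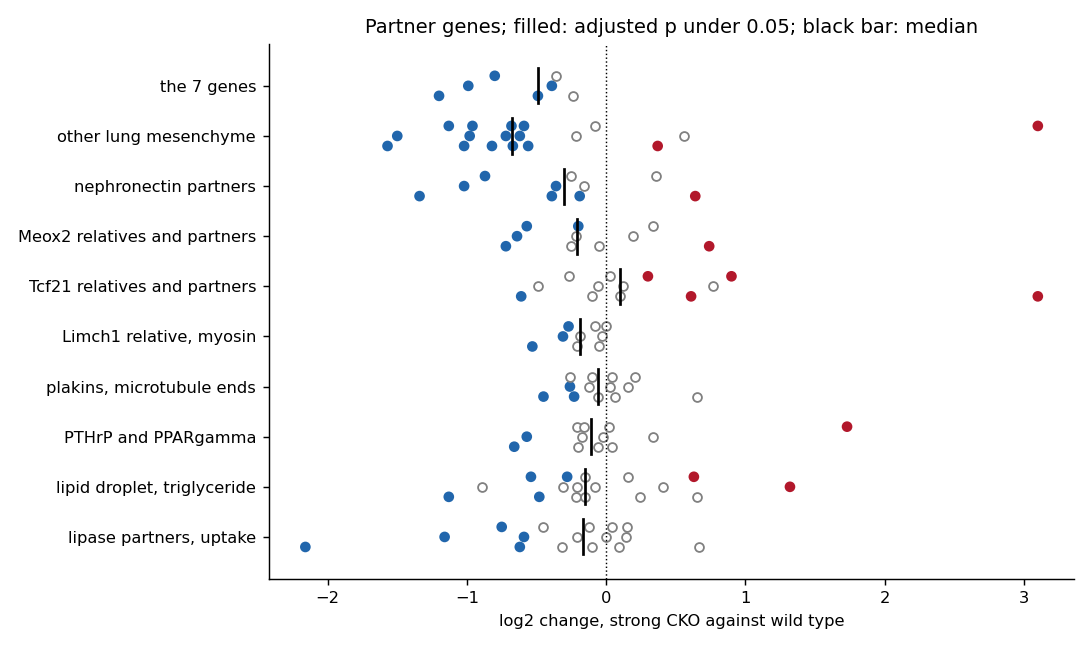
Log2 change in strong CKO lungs against WT (horizontal axis) for the 7 genes and for 9 lists of their partners and relatives; filled points passed an adjusted p of 0.05, and black bars are list medians. The other mesenchyme genes have the lowest median, -0.67, and the bHLH relatives of Tcf21 the highest, 0.10.

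Several members are also made outside the mesenchyme, among them Npnt and Limch1 in alveolar type 1 cells, Plin2 in type 2 cells, Meox2 in vessels and Lpl in macrophages. Markers of those cells were read in the same libraries, where 14.5% of all genes tested were called in weak and 25.6% in strong lungs. Of 10 type 2 markers, 2 fell in weak and 9 in strong lungs, with a median of -0.48 in strong lungs and a summed level of 16274 to 23039 CPM in WT, 16358 to 17174 in weak and 12435 to 14893 in strong libraries. Of 10 type 1 markers, none was called in weak lungs by edgeR (3 before adjustment, and 2, Emp2 and Pdpn, called by DESeq2) and 4 fell in strong lungs (median -0.26), with sums of 7024 to 8765, 6285 to 7234 and 6019 to 6161 CPM. Endothelial markers fell in 6 of 10 cases in weak and 10 of 10 in strong lungs, from 2650 to 3291 CPM in WT to 1751 to 2161 in strong libraries.

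Macrophage markers rose in 6 of 10 cases in weak and 7 of 10 in strong lungs (median 0.74), though their sum overlapped between groups (790 to 1559 CPM in WT, 868 to 1246 in strong libraries). Of 7 airway markers tested, 5 rose in each group (strong median 1.17). Of 7 heart muscle markers tested, 2 rose and 1 fell in weak lungs, and 5 rose and 1 fell in strong lungs (strong median 0.93), with sums of 177 to 255 CPM in WT, 270 to 354 in weak and 269 to 461 in strong libraries.

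Other mesenchymal cell types did not share one direction. Of 10 smooth muscle and myofibroblast markers, 3 rose and 1 fell in weak lungs, and 4 rose and 2 fell in strong lungs (medians 0.42 and 0.37), with overlapping sums of 763 to 883 CPM in WT, 718 to 868 in weak and 678 to 892 in strong libraries. Of 8 pericyte markers, 3 rose and 1 fell in weak lungs, and 3 rose and 4 fell in strong lungs (medians -0.17 and -0.30), with sums of 569 to 608, 540 to 590 and 454 to 570 CPM. Of 6 mesothelial markers, 1 rose in each group (medians -0.06 and 0). Erythroid markers, which blood in the tissue would carry, took 0.385% to 0.694% of counts in WT, 0.383% to 0.436% in weak and 0.694% to 1.29% in strong libraries. Of the 10, 1 rose in strong lungs. Removing the erythroid genes from the table left each of the 5 called members called and brought Meox2 just past the threshold (adjusted p 0.0499). This removal leaves the members' own counts as they were (Meox2 log2 -0.36 either way), so it cannot show the part of blood. With the erythroid level as a covariate in edgeR, the 5 stayed called in strong lungs, and Meox2 passed (log2 -0.44, adjusted p 0.0456). The part of these cell types in the members' changes was not tested.

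Adipocytes also hold much Plin2 and Lpl. Of 7 adipocyte markers in the table, Plin1, Ucp1, Retn and Cfd had 0 to 7 counts per library and were not tested. All 7 together summed to 9.11 to 14.8 CPM in WT, 3.79 to 5.51 in weak and 2.90 to 4.03 in strong libraries, a sum made up mostly of Adrb3, a beta-adrenergic receptor (13.2, 8.56 and 11.3 CPM in WT, and 3.59 ± 1.10 in weak and 2.53 ± 0.819 in strong lungs). Adrb3 fell in both CKO groups. Cidea rose in both in the edgeR fit, from 0.132 ± 0.0406 CPM in WT to 0.421 ± 0.0227 in weak and 0.334 ± 0.0743 in strong lungs. DESeq2 called Cidea in neither group. The list's median difference from the WT mean overlapped between groups, at -0.34 to 0.30 in WT and -0.19 to 0.26 in strong libraries. The deleted gene Dnmt1 stood at 99.1 ± 21.0 CPM in WT, 69.6 ± 10.8 in weak and 68.6 ± 8.91 in strong lungs, a strong log2 change of -0.53 (adjusted p 0.0433) and a weak difference of -0.51 (adjusted p 0.0727). The call of Dnmt1 in strong lungs held in 7 of 18 alternative settings, and was lost, among others, without WT_268_1 (log2 -0.36) or MUT_S_265_5 (log2 -0.46).

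**Figure D5:**
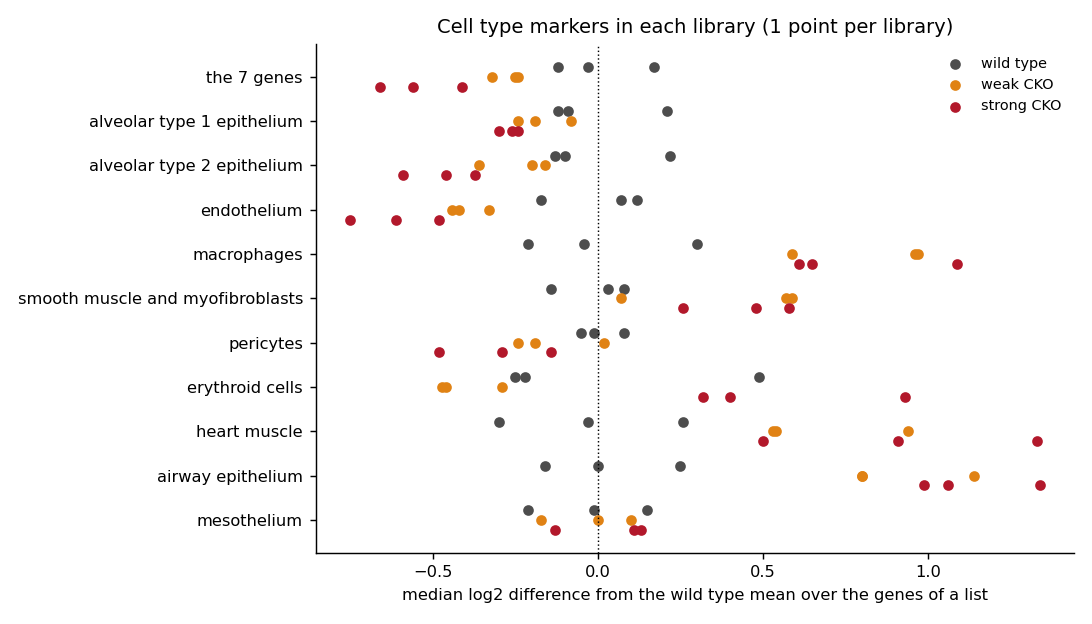
Median log2 difference from the WT mean over the genes of each list (horizontal axis), with 1 point per library coloured by group. The 7 genes, alveolar type 2 and endothelial markers lie lowest in strong CKO libraries, while airway and macrophage markers lie above WT in both CKO groups.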

How the data were processed

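Total RNA from 9 E18.5 mouse lungs was sequenced as 75-base single reads on Illumina TruSeq libraries, per the labels' protocols. The submitters' processing notes list edgeR 3.28.1, STAR, Trimmomatic 0.36, cutadapt 2.5, FastQC 0.11.8 and, as genome, GRCm38.p6. Neither the counting tool nor the annotation release or strandedness is stated in what was used here. The authors deposited raw counts per gene for each library, and RPKM values computed with a gene length from the same table. That length equals the exons of all transcripts added up, plus 1 base per exon, for 96.4% of genes in GENCODE annotation, so RPKM is too low for genes with many transcripts. RPKM was used only in alternatives on a log2 scale and for the order named above.

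Counts were scaled with TMM factors and tested with edgeR 4.0.16 in R 4.3.3 (robust quasi-likelihood fit, 1 mean per group over 9 libraries, filterByExpr). P-values were adjusted by Benjamini-Hochberg over 19374 genes, in 3 comparisons at a threshold of 0.05. With 3 libraries against 3, an exact permutation test of 1 gene cannot go below 0.1. The fit was tested on simulated data. Groups came from the labels. The members and lists were chosen with earlier results of these data known; of each list, partner genes with the smallest adjusted p in strong lungs are named, up to 4, plus up to 2 called in the opposite direction; of the marker lists only single genes are named. Alternatives were upper quartile factors, DESeq2 1.42.0, no filter, only the compared groups, limma 3.58.1 on log2(RPKM + 1) and log2(RPKM + 0.1), each library left out, the library number as a block, erythroid genes removed, and the erythroid level as a covariate.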

Additional observations from a re-analysis of the deposited data

How the results depend on the processing

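Over the 18 alternatives the falls of Tcf21, Limch1 and Macf1 in weak and of Tcf21, Limch1, Macf1, Npnt and Plin2 in strong lungs kept direction and call. Log2 values ranged for Limch1 from -0.91 to -0.76 in weak and from -1.34 to -1.07 in strong lungs, and for Plin2 from -0.46 to -0.29 in strong lungs. DESeq2 called 5 members in weak lungs, adding Npnt and Plin2. The direction of Lpl, never called, turned in 6 cases, and with 1 library left out it ran from -0.18 to 0.29 in weak and from -0.39 to 0.07 in strong lungs. In weak lungs it was 0.02 on log2(RPKM + 1), 0.02 on log2(RPKM + 0.1), 0.29 without WT_265_1, 0.08 without MUT_W_549_3 and 0.27 with the erythroid covariate, and in strong lungs 0.07 without WT_265_1; the cause was not tested. With 1 library left out, the genes called in weak lungs numbered 1310 to 2828 (2803 with all), with 1766 without WT_549_2, 1432 without MUT_W_265_2 and 1310 without MUT_W_268_3. In strong lungs they numbered 3101 to 4983 (4969 with all), the lowest without MUT_S_265_5. Between strong and weak lungs 1 gene was called, Rpl35a, with 10 in DESeq2, 4 with only the groups compared, 2 on log2(RPKM + 0.1), 0 with the erythroid covariate and 1 to 4 with 1 library left out. No paired origin is stated for libraries that share a number. Their deviations from the group means correlated between -0.09 and 0.35, and those of libraries with unlike numbers between -0.38 and 0.19. The highest values were of pairs that share a number, WT_549_2 with MUT_W_549_3 (0.35) and WT_265_1 with MUT_W_265_2 (0.30). Since the values of such pairs were not all above 0.1, the number was not taken as a pairing in the main fit. A shared origin was not tested. With it as a replicate block, 4 members were called in weak lungs (Plin2 added), 5 in strong and 0 between strong and weak, and 3926, 4450 and 3 genes of all tested, and Fabp4 (log2 1.40, adjusted p 0.136), Lipg, Id2 and Cdkn1a were not called in strong lungs.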
